A study of Mus musculus with 8 samples.

Results

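The 8 genes described here encode the core of the Myc network and were taken by name (Myc, Mycn, Mycl, Max, Mxd1, Mxd4, Mxi1 and Mnt) among 45706 genes in the RNA files. All 8 were found by symbol and all 8 passed the filter on low counts. MYC, MYCN and MYCL are basic helix-loop-helix leucine zipper transcription factors that bind DNA as dimers with MAX. MXD1, MXD4, MXI1 and MNT compete for the same partner and, with MAX, recruit SIN3 co-repressors to the same E-box sequence, CACGTG. In mouse haematopoietic stem cells, MYC activity is known to drive growth, ribosome production and the exit from quiescence, and Myc and Mycn are known to act together in their survival and self-renewal.

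LSK cells of C57BL/6 bone marrow were profiled by RNA-seq and, for open chromatin read out through transposase cuts, by ATAC-seq. LSK cells lack lineage antigens and carry Sca1 and Kit, a gate that holds stem cells and multipotent progenitors. Each assay had 2 libraries labelled Hira conditional KO and 2 labelled WT. HIRA is the chaperone that places histone H3.3 outside DNA replication. The labels give no Cre driver, age, sex or number of mice, so p-values measure the spread between libraries. That spread may be technical in the labelled Hira KO pair, while the labelled WT pair differed in sex. Expected counts summed to 17.5 and 19.4 M in the labelled Hira KO libraries and to 16.6 and 19.8 M in the labelled WT libraries, and mitochondrially encoded genes took 42.9% and 53.1% of them in labelled Hira KO and 40.8% and 51.7% in labelled WT.

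Hira itself was not lower in the libraries labelled KO. It had 24.4 and 23.3 CPM (counts scaled to library size) in labelled Hira KO and 16.5 and 17.2 CPM in labelled WT (log2 fold change 0.50, edgeR adjusted p = 0.180). All 8 deposited file names also carry the other genotype from their titles. The groups are therefore called labelled Hira KO and labelled WT, on which every direction below rests. Reads from exons outside the deleted stretch enter the Hira count, which makes it a partial check. The labelled WT replicate 2 RNA library stood apart from the rest in sex, since Y-linked Ddx3y reached 906 counts there against 1 or 2 elsewhere. Of the genes that define the gate, Kit had 330 and 327 CPM in labelled Hira KO and 274 and 351 CPM in labelled WT, and Ly6a, which encodes Sca1, had 23.1 and 33.6 in labelled Hira KO against 10.3 and 8.86 CPM in labelled WT. Of 9 genes of the lineage antigens none was listed at 0. By edgeR 1 of the 9 was called higher and 0 lower, against 1.32% and 0.480% of all tested genes. Group CPM values did not overlap in 7 of the 9, against 56.1% of all tested genes. Their TPM summed to 30.2 and 25.3 in labelled Hira KO and to 36.3 and 25.6 in labelled WT.

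The promoters of 4 of the genes are shown because they hold the MYC and MAX binding sequence or the E2F-type sequence within an open region described below. RefSeq promoter windows (GRCm38.p6, 250 bases before to 50 after the start) were at hand for 7 of the 8 genes, 9 windows in all, each 300 bases. They are written 5′ to 3′ on the gene's own strand, and capitals mark CACGTG in Max, Mxd4 and Mnt and TTTGGCGC in Mycn. Another E2F-type motif, TTTCCCGC, was in none of the 9.
Mycn promoter, chr12:12941787-12942086, minus strand: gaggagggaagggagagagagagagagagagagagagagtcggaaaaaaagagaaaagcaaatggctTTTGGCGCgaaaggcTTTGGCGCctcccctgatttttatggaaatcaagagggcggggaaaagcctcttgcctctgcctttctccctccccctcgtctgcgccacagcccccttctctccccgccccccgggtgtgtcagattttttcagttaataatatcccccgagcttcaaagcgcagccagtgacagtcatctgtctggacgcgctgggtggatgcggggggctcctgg
Max promoter, chr12:76962199-76962498, minus strand: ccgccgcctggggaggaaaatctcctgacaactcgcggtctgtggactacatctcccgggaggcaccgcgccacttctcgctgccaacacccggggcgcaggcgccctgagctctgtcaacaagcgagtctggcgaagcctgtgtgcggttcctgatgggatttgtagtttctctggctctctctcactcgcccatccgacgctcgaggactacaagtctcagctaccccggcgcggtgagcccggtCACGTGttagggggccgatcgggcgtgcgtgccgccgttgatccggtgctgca
Mxd4 promoter, chr5:34187661-34187960, minus strand: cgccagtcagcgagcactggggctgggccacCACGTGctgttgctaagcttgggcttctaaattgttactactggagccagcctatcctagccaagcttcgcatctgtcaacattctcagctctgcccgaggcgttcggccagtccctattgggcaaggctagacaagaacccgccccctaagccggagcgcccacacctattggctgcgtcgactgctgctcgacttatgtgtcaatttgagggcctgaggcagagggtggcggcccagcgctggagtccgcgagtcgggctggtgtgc
Mnt promoter, chr11:74830674-74830973, plus strand: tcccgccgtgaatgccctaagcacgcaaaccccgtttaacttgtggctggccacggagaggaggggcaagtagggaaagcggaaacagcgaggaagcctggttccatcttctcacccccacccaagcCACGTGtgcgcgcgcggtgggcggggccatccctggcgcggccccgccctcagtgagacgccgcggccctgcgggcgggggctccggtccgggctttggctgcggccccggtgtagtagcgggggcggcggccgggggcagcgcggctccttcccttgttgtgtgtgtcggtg
CACGTG, which is its own reverse complement, stood once each in the Max, Mxd4 and Mnt windows and in none of the Mxd1, Mxi1, Mycl and Mycn windows. Of 32851 RefSeq windows 7.15% hold it. TTTGGCGC, searched on both strands, stood at 2 places in the Mycn window, against 0.514% of all windows with at least 1. TTTCCCGC was in 1.07% of all windows. E2F factors are known to act through such sites at the Mycn promoter. A match describes letters, not binding.

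Myc was by far the most abundant of the 8 transcripts. In TPM, which corrects for transcript length and so allows levels of different genes to be compared, Myc had 222 and 160 in labelled Hira KO and 362 and 233 in labelled WT. In each library it lay above 98.2% or more of the tested genes. Max, the obligate partner, followed with a mean of 25.2 TPM over the 4 libraries, then Mxd4 with 16.2, Mxd1 with 7.95, Mnt with 6.96, Mxi1 with 5.25 and Mycn with 4.58. Mycl was the lowest, at 0.41 and 0.51 TPM in labelled Hira KO and 1.31 and 0.80 TPM in labelled WT. The ranges of Myc and of Mycl over the 4 libraries overlapped with no other member. The ranges of Max and Mxd4 overlapped, as did those of each pair of neighbours from Mxd4 down to Mycn, although TPM of these genes was lower in replicate 2 of both groups. Within each of the 4 libraries Max was above Mxd4, Mxd4 above Mxd1, Mnt above Mxi1 and Mxi1 above Mycn, while Mxd1 and Mnt changed order in labelled WT replicate 2.

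**Figure D1:**
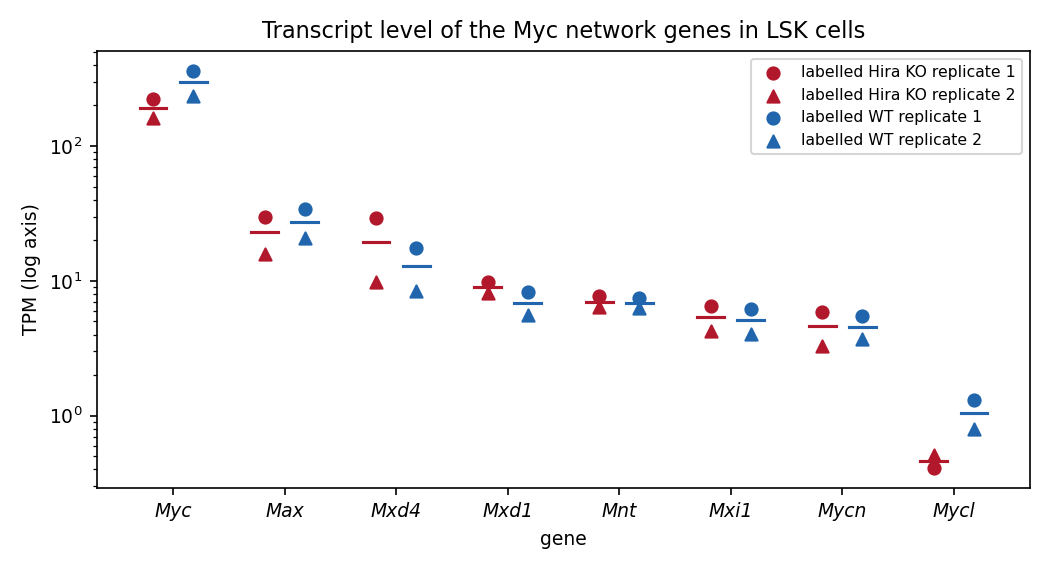
TPM (log axis) of the 8 genes in each RNA library, ordered by the mean over the 4 libraries, with points for libraries and lines for group means (n = 2 each). Myc stands at 160 to 362 TPM and Mycl at 0.41 to 1.31 TPM, with the other 6 between them.

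None of the 8 genes differed between the groups past the threshold. By edgeR's quasi-likelihood test 0 of 8 were called (Benjamini-Hochberg adjusted p below 0.05 over 16258 tested genes), against 1.80% of all tested genes. DESeq2 and limma on log2(TPM + 1) and log2(TPM + 0.1) also called 0. At an unadjusted p below 0.05 there were 2, Myc and Mxd1, against 22.8% of all tested genes. Group CPM values were separate, with no overlap, for 4 of the 8 (Myc, Mycl, Mxd1 and Mnt), against 56.1% of all tested genes. The median log2 fold change of the 8 was 0.07, and that of all tested genes was 0.01.

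Among the activators, Myc had 306 and 287 CPM in labelled Hira KO and 447 and 367 CPM in labelled WT. Both labelled Hira KO libraries lay below both labelled WT libraries. The means were 296 ± 13.0 CPM and 407 ± 57.1 CPM (SD, n = 2 each), and the log2 fold change was -0.46 (95% interval -0.82 to -0.09, SE 0.16, edgeR adjusted p = 0.145). The call depended on the setting, since Myc passed with no low-count filter (-0.48, edgeR adjusted p = 0.0485). In that fit 1206 genes were called higher and 1017 lower among 29706 tested. Without labelled Hira KO replicate 1 the log2 fold change of Myc was -0.52. Without the labelled WT replicate 2 library, which stood apart in sex, it was -0.61. Bulk RNA cannot tell fewer cells of a type from less RNA per cell.

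Mycn, the paralog best known from neural tissue and also active in stem cells, had 9.90 and 7.63 CPM in labelled Hira KO and 8.95 and 8.26 CPM in labelled WT. The groups overlapped, with a log2 fold change of 0.03 (95% interval -0.62 to 0.68, edgeR adjusted p = 0.965). It rested on 127 to 191 expected counts per library, and changes in either direction within that interval were not excluded. Mycl rested on 19 and 28 expected counts in labelled Hira KO and 58 and 45 in labelled WT. It had 0.984 and 1.68 CPM in labelled Hira KO against 3.07 and 2.46 CPM in labelled WT, groups that did not overlap, with a log2 fold change of -1.05 (95% interval -2.27 to 0.16, edgeR adjusted p = 0.273). Within each library Myc made up 97.2% and 97.7% of the summed TPM of the 3 activators in labelled Hira KO and 98.2% and 98.1% in labelled WT.

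Max had 41.9 and 30.0 CPM in labelled Hira KO and 45.9 and 37.0 CPM in labelled WT. The groups overlapped, with a log2 fold change of -0.21 (95% interval -0.72 to 0.31, edgeR adjusted p = 0.623).

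The 4 antagonists had log2 fold changes above 0, and 0 of them passed. Mxd1, which is known to rise as myeloid cells differentiate, had 34.5 and 38.5 CPM in labelled Hira KO and 28.0 and 24.8 CPM in labelled WT. Its groups did not overlap, and the log2 fold change was 0.47 (95% interval 0.05 to 0.89, SE 0.18, edgeR adjusted p = 0.180). Mxd4 had 58.2 and 37.5 CPM in labelled Hira KO and 38.3 and 27.2 CPM in labelled WT. Replicate 2 of labelled Hira KO lay just below replicate 1 of labelled WT, so its groups overlapped. The log2 fold change of Mxd4 was 0.55 (95% interval -0.08 to 1.18, edgeR adjusted p = 0.271). Leaving out labelled Hira KO replicate 2 gave 0.82, and leaving out labelled Hira KO replicate 1 gave 0.18.

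Mxi1, an MXD-family repressor gene, had 24.4 and 21.2 CPM in labelled Hira KO and 22.7 and 19.5 CPM in labelled WT, which overlapped (log2 fold change 0.11, 95% interval -0.36 to 0.58, edgeR adjusted p = 0.792). Mnt, the broadly expressed antagonist, had 26.5 and 29.5 CPM in labelled Hira KO and 24.3 and 24.95 CPM in labelled WT. Its groups did not overlap, with a log2 fold change of 0.19 (95% interval -0.24 to 0.61, edgeR adjusted p = 0.584).

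**Figure D2:**
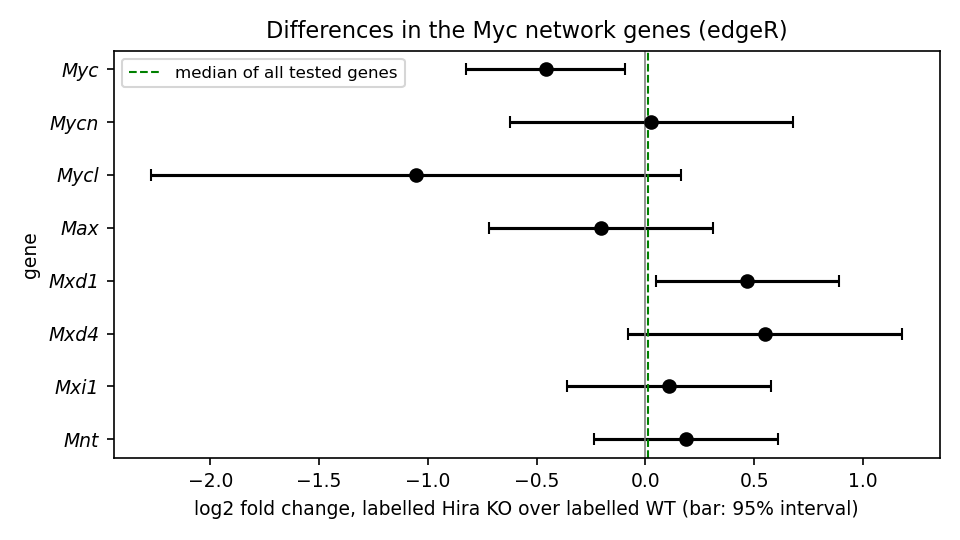
Log2 fold change of each gene, labelled Hira KO over labelled WT, from edgeR, with 95% intervals (n = 2 and 2 libraries); the dashed line is the median of all tested genes, 0.01. The intervals of Myc (below 0) and Mxd1 (above 0) leave out 0 before adjustment, and the other 6 include it.

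The balance of antagonist to activator transcripts was also taken within each library, which does not depend on the library's scaling. The summed TPM of Mxd1, Mxd4, Mxi1 and Mnt was 0.233 and 0.175 times that of Myc, Mycn and Mycl in labelled Hira KO, and 0.107 and 0.103 times in labelled WT. The groups did not overlap. No test was made of this ratio, which was formed after single genes had been seen. Mxd4 made up 54.7% and 34.4% of the antagonist sum in labelled Hira KO and 44.3% and 34.8% in labelled WT. Max TPM was 0.107 and 0.0827 times the sum of its 7 partners in labelled Hira KO and 0.0835 and 0.0799 times in labelled WT.

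Of 5 further MAX and MLX network genes 4 could be tested, and edgeR, DESeq2 and limma each called 0 of them. By edgeR 1.80% of all tested genes were called. At an unadjusted edgeR p below 0.05 there were 0 of the 4, against 22.8% of all tested genes. Group CPM values were separate in all 4 of these genes, against 56.1%. Mga, a large MAX partner that joins a Polycomb-type repressor complex, was the most abundant of these, with 116 and 77.1 TPM in labelled Hira KO and 117 and 87.3 TPM in labelled WT (log2 fold change 0.05). Mlxip, a glucose-responsive factor that pairs with MLX, had a log2 fold change of 0.27, Mlx of -0.24 and Mxd3, an antagonist linked to the cell cycle, of -0.47. Mlxipl, the carbohydrate response factor, stayed below the filter, at 0.14 to 0.16 TPM in labelled Hira KO and 0.07 TPM in both labelled WT libraries.

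Pvt1, the long non-coding RNA gene that neighbours Myc, had 4.25 and 4.03 CPM in labelled Hira KO and 8.42 and 12.6 CPM in labelled WT. Its groups did not overlap, and the log2 fold change was -1.35 (95% interval -2.10 to -0.59, SE 0.32, edgeR adjusted p = 0.0741). DESeq2 called it lower. Whether counting used strand is not stated, and reads of a gene cannot be told apart from those of an antisense partner.

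Genes activated by MYC lay lower in labelled Hira KO almost throughout the list. Of 67 such genes, many of them ribosome biogenesis factors, 63 had a log2 fold change below 0. Of all tested genes 50.9% lay above 0. The median was -0.61, against 0.01 for all tested genes. The list was chosen with earlier results of these data known, so its counts describe these libraries and are no independent test. By edgeR 4 were called lower and 0 higher, against 0.480% of all tested genes called lower and 1.32% called higher. At an unadjusted p below 0.05 there were 42 of 67, against 22.8% of all genes. Group CPM values were separate in 61, against 56.1%. The 4 that fell were Cad, Srm, Hspd1 and Ldha.

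Cad, whose enzyme opens pyrimidine synthesis, had 77.8 and 69.5 CPM in labelled Hira KO and 162 and 177 CPM in labelled WT (log2 fold change -1.20, SE 0.15, edgeR adjusted p = 0.0241). Srm, the spermidine synthase gene, had 52.1 and 46.3 CPM in labelled Hira KO and 105 and 101 CPM in labelled WT (-1.06, SE 0.15, edgeR adjusted p = 0.0336). For both genes every labelled Hira KO library lay below every labelled WT library. Hspd1, the mitochondrial chaperonin gene, had 126 and 112 CPM in labelled Hira KO against 217 and 236 CPM in labelled WT (-0.93, edgeR adjusted p = 0.0370). Ldha, the lactate dehydrogenase gene, had 262 and 227 CPM in labelled Hira KO against 445 and 446 CPM in labelled WT (-0.86, edgeR adjusted p = 0.0427). The 4 genes above 0, named after their values were seen, were Hk2 (0.17), Rabepk (0.18), Tert (1.52) and Dusp2 (1.59), and edgeR called none of them.

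The number called among the MYC-activated genes moved with the test and the libraries, as did the number called over all tested genes. The number below 0 moved little. DESeq2 called 21 lower and 2 higher, against 575 and 923 of all 16258 tested genes. Limma called 0 on both scales, against 254 lower among all genes on log2(TPM + 1) and 142 on log2(TPM + 0.1). At an unadjusted limma p below 0.05 there were 15 on log2(TPM + 1) and 13 on log2(TPM + 0.1). The share of all tested genes at that limma threshold was not counted. With a library left out, 60 to 63 genes of the list lay below 0 by edgeR, and the median ran from -0.77 to -0.52. A recount without a new fit, chosen after the data were seen, left out 5 replication, mitosis and DNA repair genes (Mcm4, Mcm5, Plk1, Plk4 and Ung). Of the other 62, 58 lay below 0 and 4 were called lower. None of the 5 was a called gene or lay above 0, so these counts follow from the full list.

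MYC-repressed genes showed no common direction. Of 11 tested, 6 lay above 0 (median 0.31), and edgeR called 0 in either direction, against 1.80% of all tested genes. At an unadjusted edgeR p below 0.05 there were 3, against 22.8% of all tested genes. DESeq2 called 1 higher and 1 lower, against 923 and 575 of all 16258 tested genes. Limma called 1 higher on both scales, against 402 of all genes on log2(TPM + 1) and 278 on log2(TPM + 0.1). The median was -0.07 without labelled WT replicate 2. Itgal, an integrin gene, had a log2 fold change of -0.69, Pdgfrb of 0.71 and the CDK inhibitor gene Cdkn1b of 0.39. Thbs1, the thrombospondin gene, had 34.7 and 384 CPM in labelled Hira KO and 8.26 and 5.85 CPM in labelled WT, a difference carried mostly by 1 library (4.89, edgeR adjusted p = 0.239).

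For the counts at an unadjusted p below 0.05 that follow, the share of all tested genes was 22.8%. Among cofactor and turnover genes edgeR called 0, against 1.80% of all tested genes, and limma called 0. DESeq2 called 2 co-activator and 2 turnover genes lower and 0 co-repressor genes. Over all 16258 tested genes DESeq2 called 923 higher and 575 lower. Of 16 co-activator genes 10 lay below 0 (median -0.06, and -0.18 to -0.04 with a library left out), with 4 at an unadjusted p below 0.05. Ruvbl2, an ATPase of the TIP60 and INO80 complexes, had 50.9 and 31.5 CPM in labelled Hira KO and 94.8 and 85.4 CPM in labelled WT (log2 fold change -1.13, edgeR adjusted p = 0.0632). Next by p-value were the host cell factor gene Hcfc1 (-0.49), the SWI/SNF subunit gene Smarcb1 (-0.51) and the acetyltransferase gene Kat2a (-0.41). Of 10 co-repressor genes, which MXD and MNT proteins use, 8 lay below 0 (median -0.15, 0 at an unadjusted p below 0.05), with the histone-binding genes Rbbp7 (-0.29) and Rbbp4 (-0.18), the scaffold gene Sin3a (-0.28) and the deacetylase gene Hdac2 (-0.34) lowest in p-value. Of 11 genes of MYC protein turnover 6 lay below 0 (median -0.24, and -0.20 to -0.07 with a library left out). At an unadjusted p below 0.05 there were 3, the mitotic kinase gene Aurka (-1.03), the ubiquitin ligase genes Skp2 (-0.79) and Fbxo32 (1.08), followed by Huwe1 (-0.28).

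**Figure D3:**
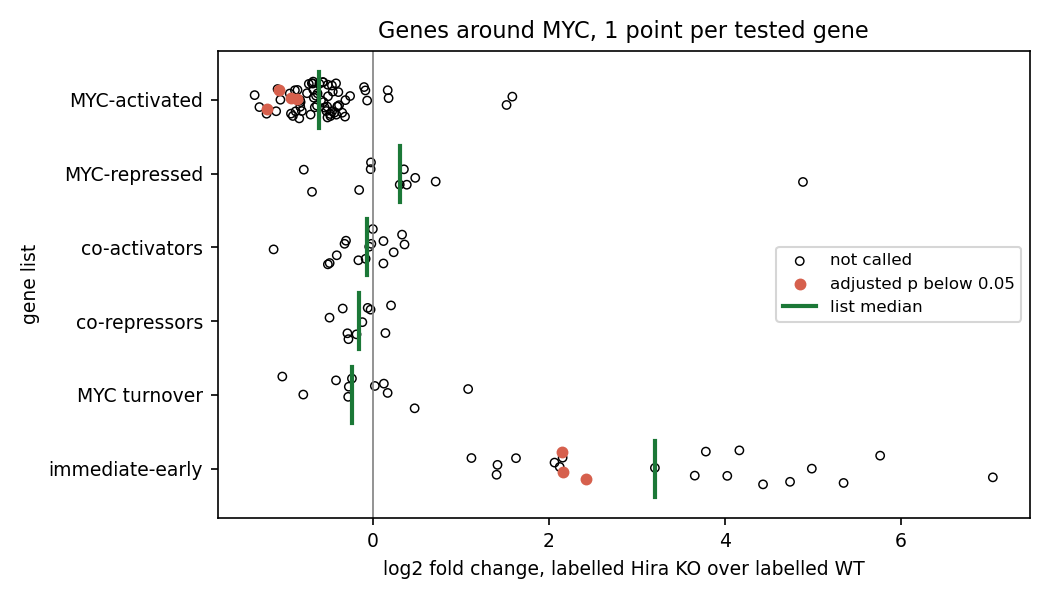
Log2 fold change (labelled Hira KO over labelled WT, edgeR) of each tested gene in 6 lists, with filled points for called genes and a bar for each list's median. The MYC-activated genes centre on -0.61 with 4 called, and the immediate-early genes on 3.20 with 3 called. The lists were chosen with earlier results of these data known.

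Other gene groups differed in the same contrast, and their part in the values above was not tested. Immediate-early genes, to whose class Myc also belongs in many cells, lay above 0 in 21 of 21 tested, with a median of 3.20. Leaving out labelled Hira KO replicate 2 gave a median of 2.01, with 1 of 21 below 0. Their summed TPM was 953 and 2912 in labelled Hira KO and 218 and 122 in labelled WT, so labelled Hira KO replicate 2 was the highest. By edgeR 3 rose, against 1.32% of all tested genes called higher. These were Ier2 (2.43), Ier5 (2.16) and Ppp1r15a (2.15), and Btg2 followed (2.16, adjusted p = 0.0566). DESeq2 called 18 higher, with 923 higher among all 16258 genes. Limma called 16 on both scales, with 402 higher among all genes on log2(TPM + 1) and 278 on log2(TPM + 0.1). The number called by edgeR moved with the library left out, as did the number called over all tested genes. Their median then ran from 2.01 to 3.77. Myc itself lay below 0 while these genes lay above it.

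Markers of stem cells and of other cell types also differed, and edgeR's counts of them stand beside 1.32% of all tested genes called higher and 0.480% called lower. Of 14 HSC markers all lay above 0 and 5 were called higher, with summed TPM of 459 and 411 in labelled Hira KO and 156 and 139 in labelled WT. Of 10 genes that mark LSK subsets 4 were called higher and 0 lower (summed TPM 696 and 592 in labelled Hira KO against 434 and 355 in labelled WT). Of 15 erythroid markers 11 lay below 0 and 0 were called (664 and 226 TPM in labelled Hira KO against 914 and 897 TPM in labelled WT). Of 14 tested granulocyte and monocyte markers 12 lay below 0, with 2 called lower and 1 higher (2898 and 1402 TPM in labelled Hira KO against 5985 and 3102 TPM in labelled WT). Of 14 tested B and plasma cell markers 7 lay above 0 and 7 below 0 (median -0.39), and 3 were called higher and 0 lower (8475 and 3725 TPM in labelled Hira KO against 1124 and 796 TPM in labelled WT). DESeq2 called 3 of these B and plasma cell genes higher and 5 lower, against 923 and 575 of all 16258 tested genes. All 8 tested mast cell and basophil markers lay below 0 with 0 called (52.8 and 35.9 TPM in labelled Hira KO against 119 and 76.3 TPM in labelled WT).

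Of 11 tested stromal and endothelial markers 3 were called lower (54.9 and 45.9 TPM in labelled Hira KO against 75.1 and 46.6 TPM in labelled WT). Of 8 tested megakaryocyte markers 1 was called higher (155 and 110 TPM in labelled Hira KO against 98.0 and 33.8 TPM in labelled WT). Of 9 tested T and NK cell markers 1 was called higher (158 and 61.2 TPM in labelled Hira KO against 171 and 118 TPM in labelled WT). With a labelled WT library left out, edgeR lost nearly all of its calls over all tested genes, and those in these marker lists with them. Of the markers in these lists, at most 2 of a list were listed at 0 in any library.

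The genes whose profile over the 4 RNA libraries was most like that of Myc, by Euclidean distance between centred log2 CPM among 7899 named genes, were the centrosomal gene Nin (0.02), the SAGA complex gene Sgf29 (0.05) and the N-myristoyltransferase gene Nmt1 (0.05). The median distance from Myc was 0.57. Nin had 76.1 and 71.2 CPM in labelled Hira KO and 113 and 91.6 CPM in labelled WT. For Mycn they were the single-stranded DNA binding gene Nabp2 (0.01), the mRNA decapping gene Lsm1 (0.01) and the CCR4-NOT subunit gene Cnot10 (0.03), with a median of 0.53.

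The ATAC lists were set beside the RNA for the same genes. Peaks of the 4 libraries that overlapped were merged into 112479 regions, and 61 lay within 10 kb of the bodies of the 8 genes. Of these, 52 and 42 were called in the labelled Hira KO libraries and 45 and 37 in the labelled WT libraries. All 4 libraries called 31, against 40.7% of all regions. The labelled Hira KO pair alone called 3, against 5.64% of all regions, and the labelled WT pair alone called 1, against 2.77%. Fold enrichments below are the values of the authors' peak caller, come with no read totals and were not tested between lists.

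At Myc (chromosome 15, 61985341 to 61990361, GRCm38) 5 regions were called. The main one, at 61984224 to 61988480, covered the low-coordinate part of the gene with fold enrichments of 45.7 and 41.2 in labelled Hira KO and 61.4 and 39.4 in labelled WT, values that overlap. A second, at 61983217 to 61983906, had 40.1 and 27.1 in labelled Hira KO against 35.4 and 25.6 in labelled WT. The high-coordinate end of the gene differed in its calls. The region at 61989406 to 61990128 was called in the labelled WT pair only, at 5.77 and 2.95. The value of 2.95 was near the calling floor, since 1.11% of peaks of labelled WT replicate 2 were as weak or weaker. The next region, at 61990523 to 61992514, was not called in replicate 1 and stood at 4.46 in replicate 2 of labelled Hira KO. It had 12.5 and 9.85 in labelled WT. The fifth region, at 61999605 to 62000000, was called in all 4 libraries.

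At Mycn (chromosome 12, 12936093 to 12941836, minus strand) the region over the promoter printed above, at 12941592 to 12942128, was weak. It had 7.23 and 6.18 in labelled Hira KO, 7.70 in labelled WT replicate 1 and no call in labelled WT replicate 2. The stronger region lay upstream, at 12942271 to 12942851, with 19.8 and 16.8 in labelled Hira KO and 10.8 and 12.8 in labelled WT, values that did not overlap. At Mycl (chromosome 4, 122995588 to 123002490, plus strand) the promoter region had 15.9 and 14.8 in labelled Hira KO against 15.2 and 13.5 in labelled WT. A region upstream, at 122991198 to 122991562, was called in the labelled Hira KO pair only, at 5.59 and 7.55.

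The promoter regions of Max and the antagonists were stronger and called in all 4 libraries. Max (chromosome 12, 76937269 to 76962323, minus strand) had 116 and 111 in labelled Hira KO and 117 and 90.3 in labelled WT. Mxd1 (chromosome 6, 86647044 to 86669234, minus strand) had 168 and 156 in labelled Hira KO against 147 and 151 in labelled WT, which did not overlap. Mxd4 (chromosome 5, 34176580 to 34187710, minus strand) had 125 and 152 in labelled Hira KO against 113 and 127 in labelled WT, which overlapped. At Mnt (chromosome 11, 74830806 to 74845725, plus strand) they were 68.5 and 61.1 in labelled Hira KO against 80.8 and 69.6 in labelled WT, which did not overlap. Mxi1 (chromosome 19, 53310128 to 53373293, plus strand) had 2 promoter regions. The first had 73.4 and 52.5 in labelled Hira KO and 78.7 and 54.2 in labelled WT, and the second 58.5 and 46.3 in labelled Hira KO against 62.9 and 44.0 in labelled WT.

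**Figure D4:**
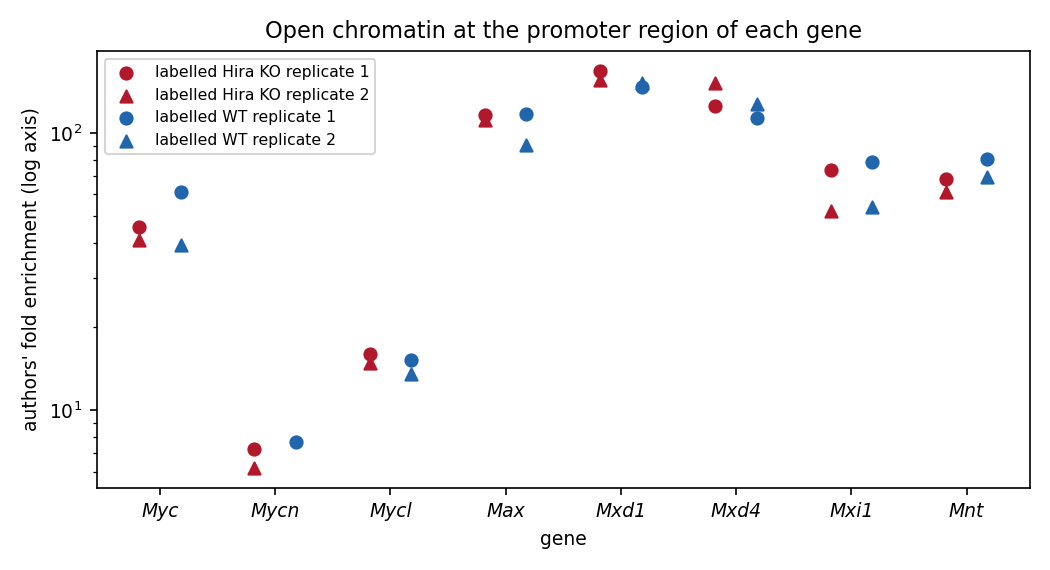
The authors' fold enrichment (log axis) of the region over the RefSeq promoter of each gene (first of 2 for Mxi1; the main region overlapping the gene for Myc) in each ATAC library. Max, Mxd1 and Mxd4 stand at 90.3 to 168, Mycl at 13.5 to 15.9 and Mycn at 6.18 to 7.70 with no point for labelled WT replicate 2.

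Regions inside and around Mxd1 and Mxi1 went both ways. The region 6727 bp beyond the low-coordinate end of Mxd1, at 86639184 to 86640317, had 19.3 and 33.6 in labelled Hira KO and 56.2 and 37.4 in labelled WT. Inside Mxd1 the region at 86665645 to 86666717 had 6.99 and 7.89 in labelled Hira KO against 4.04 and 5.25 in labelled WT. Inside Mxi1 the region at 53325462 to 53326504 had 31.2 and 25.1 in labelled Hira KO and 47.5 and 42.3 in labelled WT, while that at 53318084 to 53318885 had 8.62 and 11.3 in labelled Hira KO against 6.35 and 5.25 in labelled WT. The other 2 regions called by the labelled Hira KO pair alone lay beside Mxd4 (34196461 to 34196844, at 5.13 and 5.49) and Mxi1 (53303447 to 53303790, at 4.20 and 5.49).

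Over the 31 member regions called in all libraries, fold enrichment of the groups did not overlap in 12. It was higher in labelled Hira KO in 6, against 24.9% of all regions called in all libraries, and lower in 6, against 17.7%. The median log2 ratio of the group means was -0.03 over these 31 and 0.05 over all 45779 such regions.

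Known blood enhancers of Myc lie far from the gene, in the gene desert beyond it on the side of Pvt1, and in mice they are known to act in stem and progenitor cells. In the 2 Mb beyond the high-coordinate end of Myc 91 regions were called, with 71 and 59 in the labelled Hira KO libraries and 59 and 55 in the labelled WT libraries. They fell into a near group, mostly over and around Pvt1 (47.6 to 269.9 kb from the end of Myc), and a far group, with 9 of the 20 bins of 100 kb empty in every library. Of the 91 regions 41 were called in all 4 libraries, against 40.7% of all regions. In the bin from 1700 to 1800 kb 11 of 12 regions were so called. The 11 span 78.3 kb, from 63693616 to 63771950 on chromosome 15. Inside that span lie the long non-coding RNA genes 4930449C09Rik (63718348 to 63737636) and Gm41336 (63740669 to 63745359). The protein-coding gene Gsdmc starts beyond it, at 63775971. Whether these regions act on Myc was not tested. The labelled Hira KO pair alone called 1 of the 91, against 5.64% of all regions, and the labelled WT pair alone 0, against 2.77%.

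Within that far group the strongest regions were open in both groups. The region at 63709106 to 63709990, 1718.7 kb from Myc, had fold enrichments of 21.9 and 25.7 in labelled Hira KO and 48.7 and 31.2 in labelled WT. The region at 63736226 to 63737396 had 22.8 and 20.6 in labelled Hira KO and 40.8 and 26.3 in labelled WT. In both, the labelled Hira KO libraries lay below the labelled WT libraries. Over the 11 regions the values did not overlap in 5, lower in labelled Hira KO in 4, against 17.7% of all regions called in all libraries, and higher in 1, against 24.9%. The median fold enrichment of the 11 was 10.5 and 9.61 in labelled Hira KO and 17.9 and 8.86 in labelled WT, so replicate 1 of labelled WT was high and the other 3 libraries were alike.

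**Figure D5:**
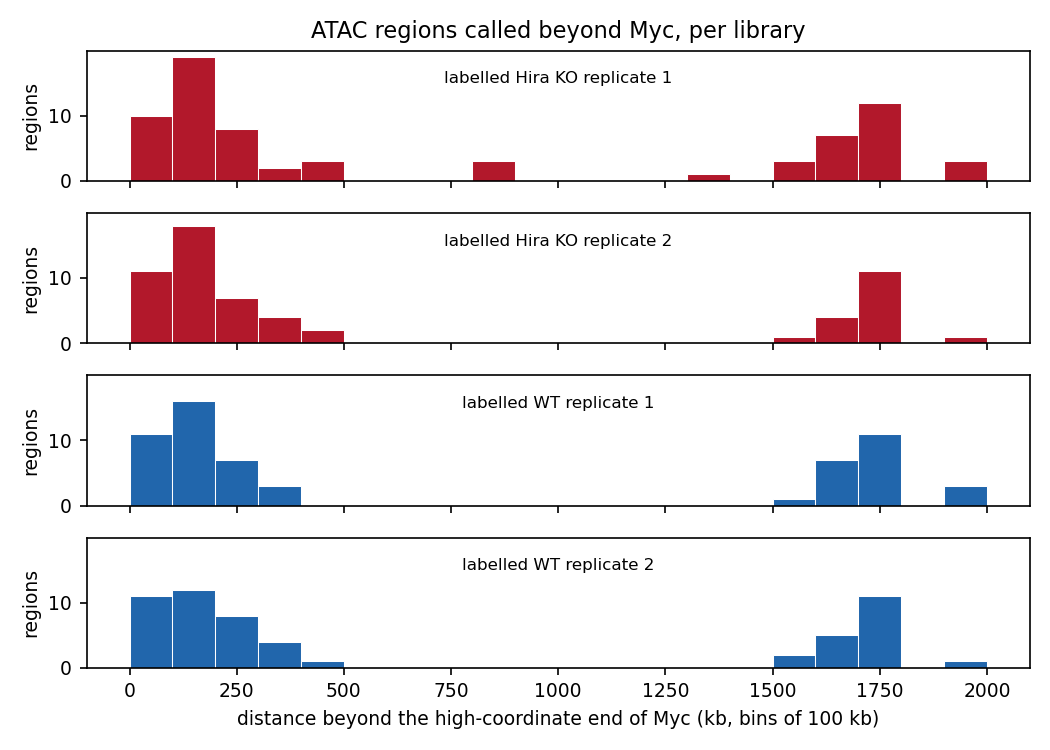
Number of ATAC regions called per library in bins of 100 kb by distance beyond the high-coordinate end of Myc (kb). In each of the 4 libraries calls gather within 400 kb of Myc and again at 1600 to 1800 kb, where the bin from 1700 to 1800 kb holds 12 and 11 regions in labelled Hira KO and 11 and 11 in labelled WT.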

How the data were processed

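RNA-seq and ATAC-seq of sorted LSK cells, 2 libraries labelled Hira KO and 2 labelled WT per assay, were grouped by sample title. For RNA, amplification used NuGEN's Ovation system and libraries Nextera XT, per the labels' protocols. The submitters' processing notes name, without roles, RSEM 1.3.0, STAR 2.5.3a, HTSeq, DESeq2, MACS2 2.1.1, Bowtie2 2.2.9, Trim Galore 0.4.5, bedtools and the build GRCm38. The authors deposited RSEM's expected counts, which are not normalized. The deposited TPM are scaled to 1 total per library, so they move with the mitochondrial share. The authors' peak lists, 1 per library, hold a fold enrichment (a ratio over local background), a -log10 p-value and a -log10 q-value, but no read totals, so read depth is unknown. No source used here gives the shift applied for the transposase.

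Symbols were matched for 45143 of 45706 genes, and positions came from RefSeq (GRCm38.p6). Rounded expected counts entered edgeR 4.0.16 (R 4.3.3, TMM, filterByExpr, robust quasi-likelihood F test, genotype as the only term), with Benjamini-Hochberg adjustment over 16258 genes. The biological coefficient of variation was 27.8%. The edgeR and peak-merging steps were tested on simulated data. Libraries of a group differed by more than sampling noise (mean chi-square per gene 66.2 in labelled Hira KO and 49.1 in labelled WT). Depth limits genes of low count, such as Mycl, most. Peaks sharing an interval were counted as 1, the mitochondrial chromosome was left out, and peaks with 1 bp or more in common were joined. A region counts as called in 1 pair only when that pair's libraries both list it and the other pair's do not. With 2 against 2 libraries no permutation test could pass, so peaks were described only. Mycnos, planned as a neighbour of Mycn, was not analysed here.

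The 8 genes and the lists were chosen with earlier results of these data known. Named were all 8 genes, Hira, the neighbours, the further network genes, the 4 members of each list with the lowest p-value, and for Myc and Mycn the 3 nearest profiles among genes averaging 3 or more in log2 CPM. Alternatives were DESeq2 1.42.0 and its size factors, other filters, limma 3.58.1 on log2(TPM + 1) and log2(TPM + 0.1), mitochondrial genes left out, a replicate term, each library left out, and other peak settings.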

Additional observations from a re-analysis of the deposited data

How the results depend on the processing

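Of 96 recomputed log2 fold changes of the 8 genes 86 kept their sign and their side of the threshold, 3 passed the threshold (2 for Myc and 1 for Mxd4) and 7 changed sign. Mycn was -0.0118 by limma with a pseudocount of 1 and -0.0193 with 0.1. With a library left out Mycn ran from -0.1914 to 0.196, Mxi1 from -0.0124 to 0.2108 and Max from -0.4862 to 0.0097. Over all alternatives Myc ran from -0.62 to -0.32, Mxd1 from 0.36 to 0.54, Mxd4 from 0.18 to 0.82 and Mycl from -1.49 to -0.48. Leaving out 1 library leaves a lone sample in its group, assumed to vary like the other group.

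Genes called higher and lower, 214 and 78 among all tested, were 923 and 575 by DESeq2, 1206 and 1017 with no low-count filter, 374 and 152 with at least 1 CPM in all libraries, and 402 and 254 or 278 and 142 by limma with a pseudocount of 1 or 0.1. With no filter the median of all genes was 0.13, against 0.01. Leaving out each library they ran from 1 to 1657 and from 1 to 1888. Over the 7 lists of network, pathway and immediate-early genes, 3 genes were called higher, all immediate-early, and 4 lower, all MYC-activated. These were 21 and 26 by DESeq2, 11 and 36 with no filter, 4 and 11 with the stricter filter, 17 and 0 by limma on both scales, and 0 to 24 and 0 to 55 with a library left out. Of the 8 genes 1 was called lower with no filter, and 0 to 1 higher and 0 to 1 lower with a library left out. Deviations from the group means hardly correlated between same-numbered libraries (0.066 for replicate 1). The mitochondrial share was nevertheless higher in replicate 2 of both groups (53.1% and 51.7%) than in replicate 1 (42.9% and 40.8%). Whether same-numbered libraries shared a batch was not tested. With the replicate block 368 genes were called higher and 169 lower, of the 7 lists 3 and 7, and 0 of the 8. The cause of these shifts was not tested.

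Within 2 kb the 8 genes had 49 regions and 0 of the labelled Hira KO pair only. Within 50 kb there were 123, of which 57 were called in all libraries. The labelled Hira KO pair alone called 5 and the labelled WT pair alone 3. Over all regions these shares were 40.7%, 5.64% and 2.77%. With a library left out, the library that remains in its group stands for the pair. The 3 regions of the labelled Hira KO pair only then became 3 to 13 and the 1 of the labelled WT pair only 2 to 4. The totals were 51 to 61, with 32 to 36 called in all libraries. Beyond Myc, a -log10 q of at least 5 gave 5 and 3 regions of 1 pair only (labelled Hira KO and labelled WT). Merging by an overlap of 0.5 of the shorter peak gave 2 and 0. With a library left out, the q limit or that overlap rule, the share over all regions was not counted.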
